A study of Mus musculus with 2 samples.

Results

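Star-strand miRNAs are the minor products of miRNA hairpins, written with a star after the name of the major product. The mouse probe names ending in a star made up 115 of the 566 mouse miRNA probes on the array, and were taken by their names alone. The 2 samples came from mice of the C57BL/6J strain. One was total bone marrow (total BM), taken without selection. The other was LKS, a marrow fraction negative for lineage markers and positive for Kit and Sca1, which holds blood stem and early progenitor cells and was purified by magnetic column and then by fluorescent sorting. RNA of both was isolated with the miRNeasy kit. The sources used here do not give the number of animals behind each sample. Each group is a single array without a replicate, so every difference describes these 2 arrays and no p-value is given. In such samples, fewer cells of a type and less RNA per cell cannot be told apart.

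A miRNA gene is transcribed as a longer RNA that folds into a hairpin. The nucleases Drosha and Dicer cut it to a short duplex of the 5′ arm (5p) and the 3′ arm (3p). Usually 1 strand stays in an Argonaute protein and guides it to messenger RNAs through its seed, bases 2 to 8. The other, passenger or star, strand is usually degraded, though some hairpins yield both strands in use. The star notation was later replaced by the arm names 5p and 3p, since the dominant arm can change with tissue.

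Of the 115 star miRNAs, 9 carried the deposited detection call on at least 1 array. RefSeq (GRCm38.p6) held the mature sequence of 7 of these 9 star strands and of 6 of their partners. Array names were matched to arm names from general knowledge of the renaming. The sequences are shown with the seed in capitals because the detected star strands differ in seed from their partners and thus name different sets of possible targets. Star and partner of each hairpin follow.
miR-140*: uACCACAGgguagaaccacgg
miR-17*: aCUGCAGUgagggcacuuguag
miR-17: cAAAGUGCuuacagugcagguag
miR-674*: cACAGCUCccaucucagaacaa
miR-674: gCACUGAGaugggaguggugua
miR-135a*: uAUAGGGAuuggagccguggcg
miR-135a: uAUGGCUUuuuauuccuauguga
miR-483*: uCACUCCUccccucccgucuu
miR-483: aAGACGGGagaagagaagggag
miR-877*: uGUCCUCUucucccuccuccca
miR-877: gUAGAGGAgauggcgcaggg
miR-191*: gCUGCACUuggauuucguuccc
miR-191: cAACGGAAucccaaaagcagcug

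All 7 star strands lay on the 3′ side of their hairpin, and their 7 seeds were distinct from each other and from the 6 partner seeds. The seed of miR-17* also occurred in 2 other RefSeq mouse miRNAs, miR-20b-3p and miR-106a-3p, and that of miR-140* in 1, miR-497b. The other 5 star seeds occurred in no other mature miRNA of the table. MiR-483* and miR-877* stood out in base composition: C and U made up 90.5% and 90.9% of their bases, against 36.4% to 68.2% in the other 5. In their partners C and U were few, 4.55% in miR-483 and 20% in miR-877. Probe sequences were not used here, so the effect of base composition on a signal was not tested.

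The hairpins lie at scattered places in the mouse genome (GRCm38.p6). Mir140 (chr8:107551244-107551313) lies within the span of Wwp2, a ubiquitin ligase gene, and Mir483 (chr7:142654924-142654996) within that of Igf2, a fetal growth factor gene. Mir877 (chr17:35960730-35960814) lies within Abcf1 and is known as a mirtron, a hairpin freed by splicing without Drosha. Mir191 (chr9:108568319-108568392) lies within Dalrd3. Mir135a-1 (chr9:106154124-106154213) overlaps Glyctk and the long noncoding RNA D030055H07Rik. Mir17 (chr14:115043671-115043754) is the first hairpin of the miR-17/miR-92a cluster, known to act in proliferating blood progenitors. No other gene of the table overlapped Mir17 or Mir674 (chr2:117185127-117185226).

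Few star strands were detected. The call was given to 9 of 115 (7.83%) in total BM and to 4 (3.48%) in LKS, and the same 4 of 115 were detected on both arrays. Over all 566 mouse miRNAs the shares were 25.6% in total BM, 17.3% in LKS and 16.4% on both. Among the 451 without a star they were 30.2%, 20.8% and 19.7%. Of the 9, 5 were detected in total BM only and 0 in LKS only. Probes differ in affinity, so signals do not rank the abundance of strands. The median detected star signal was 12.8 intensity units in total BM and 16.3 in LKS, against 62.1 and 62.0 for detected probes without a star. The arrays differed in brightness, with detected mouse signals summing to 52484 in total BM and 23256 in LKS.

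The blood cell and stem cell miRNAs taken as markers differed between the arrays in the direction of the sample labels. They were chosen with earlier results of these data known, so this is not an independent check. All 6 mature blood cell markers had a call in total BM and 2 had one in LKS, with unscaled summed signals of 8290 and 934 intensity units. MiR-223 alone gave 7250 and 822 of these. Of 6 stem and progenitor markers, 5 had a call in total BM and 6 in LKS, with sums of 91.0 and 644. The 4 stromal and 3 muscle markers were detected on neither array. The part of cell composition in the star signals was not tested.

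**Figure D1:**
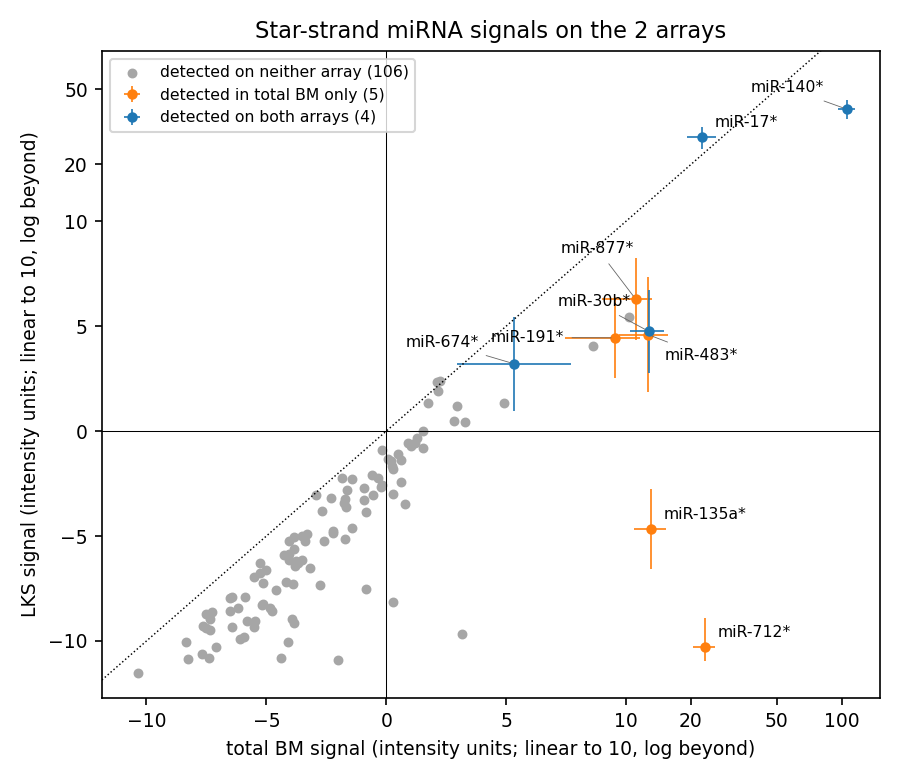
Signal of each of the 115 star miRNAs in total BM (x axis) and LKS (y axis), in intensity units on axes that are linear within 10 units of 0 and logarithmic beyond; bars are deposited errors, shown for the 9 detected, and the dotted line marks equal signals. MiR-140* and miR-17* stand clear of the other star probes in LKS, miR-712* and miR-135a* are the detected ones with LKS signals below 0, and 104 of the 106 undetected probes read lower in LKS.

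MiR-140* gave the highest star signal on both arrays. This strand is known as the abundant arm of the miR-140 hairpin in mouse cartilage. Its signal was 105 ± 9.32 intensity units in total BM and 39.3 ± 4.48 in LKS, where the error is the one deposited with each signal. The signals differed by 66.1 units, or 6.39 combined errors (the root of the summed squares of both errors). After scaling of each array to its 75th percentile of shared miRNAs, the log2 ratio of LKS to total BM was -0.70 ± 0.21, below 2-fold. Without scaling it was -1.42, past 2-fold, and with quantile normalization it was 0.043.

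MiR-17* gave the next highest star signal in LKS. It read 22.6 ± 3.45 in total BM and 27.8 ± 3.59 in LKS. The unscaled signals differed by 1.06 combined errors. After scaling, miR-17* was 2.04-fold higher in LKS (log2 ratio 1.03 ± 0.29), just past the 2-fold line. Of the 4 shared star miRNAs, 1 lay 2-fold or more above total BM and 0 lay as far below, beside 18.3% above and 18.3% below among all 93 shared mouse miRNAs. The excess of miR-17* was 0.30 on the log2 scale without scaling and 0.42 in the authors' deposited table, both below 2-fold.

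The remaining shared star miRNAs were faint. MiR-30b*, from a hairpin of the broadly expressed miR-30 family, read 12.8 ± 2.28 in total BM and 4.76 ± 1.99 in LKS, a scaled log2 ratio of -0.70 ± 0.66. MiR-674* read 5.34 ± 2.38 and 3.21 ± 2.25, a ratio of -0.01 ± 1.20, and its signals lay within 1 combined error of each other (0.652). Neither ratio passed 2-fold after scaling. The sign of both turned under other settings: with recentred background they were 0.087 and 0.77, with quantile normalization 0.60 and 1.85, and with the 75th percentile of all mouse miRNAs, which raises every ratio by the same amount, 1.42 and 2.10. The median ratio of the 4 shared star miRNAs was -0.36, beside 0.07 over all 93 shared mouse miRNAs.

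**Figure D2:**
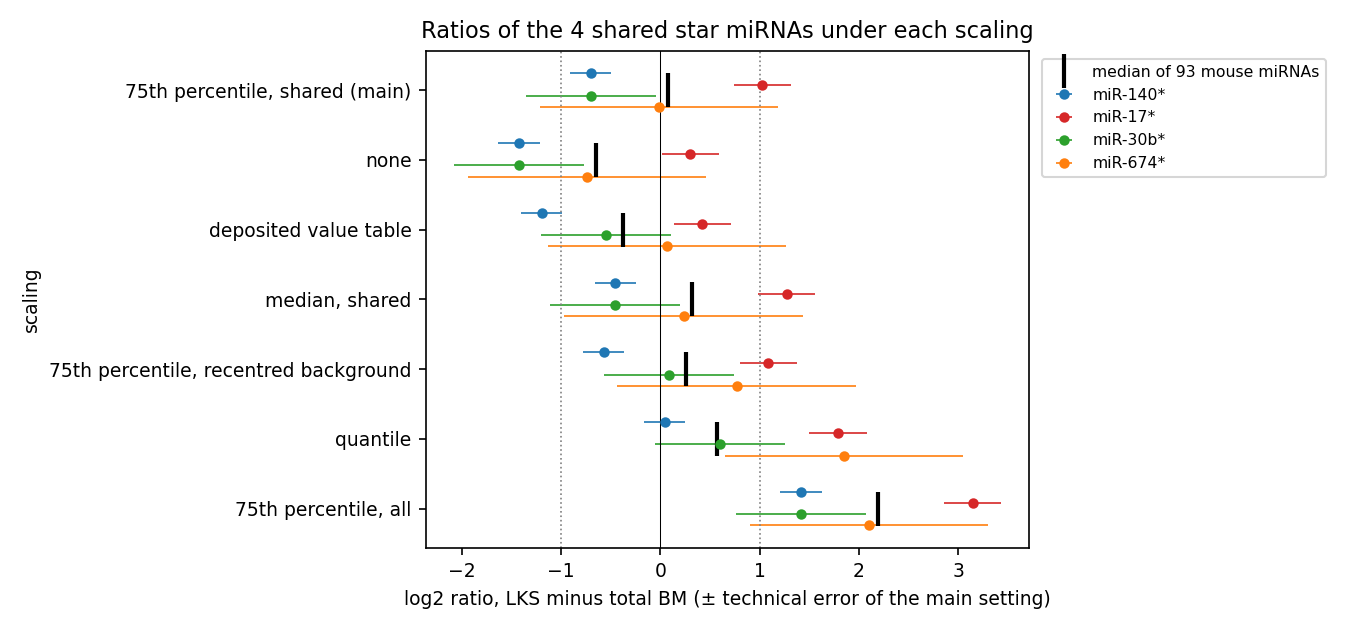
Log2 ratio of LKS to total BM (x axis) for the 4 star miRNAs detected on both arrays under 7 scalings (rows), with the technical error of the main setting; black ticks are the median of all 93 shared mouse miRNAs and dotted lines mark 2-fold. MiR-17* lay to the right of that median, and miR-140* to the left of it, under all 7 scalings shown. Scalings that divide each array by a constant move the ratios and the median alike, so these positions could not differ among them. Only the deposited values, recentred background and quantile normalization could change the positions. The signs of miR-140*, miR-30b* and miR-674* varied.

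Of the 5 star miRNAs detected in total BM only, 2 read lower in LKS by more than 5 combined errors on unscaled signals. MiR-712*, from a name that mouse endothelial work traced to ribosomal precursor RNA, read 23.2 ± 2.61 in total BM and -10.8 ± 1.91 in LKS, apart by 10.5 combined errors. MiR-135a* read 13.1 ± 2.20 and -4.67 ± 1.91, apart by 6.09. With the offset between the arrays' undetected probes removed, the 2 differences were 9.71 and 5.22 combined errors. MiR-99b*, without a call on either array, read lower in LKS by 4.61 combined errors, or 3.70 with the offset removed. Its total BM signal of 3.18 ± 2.03 was 1.57 times its error, and its LKS signal was -9.65 ± 1.91. MiR-150*, also uncalled, read lower by 3.80, or 2.89 with the offset removed, at -12.6 ± 1.91 in LKS. Deposited errors do not cover the background of a probe below 0, so no decrease is read from these 2 uncalled probes. The floor for an undetected signal was its value plus 2 errors, or the lowest detected LKS signal of 2.91 if higher. On that floor miR-712* and miR-135a* were 4.82-fold and 2.73-fold lower in LKS. The 2.91 is the signal of miR-712, the partner of miR-712*, called at 1.44 times its error. Uncalled LKS probes without a star reached 6.39, and a higher floor gives smaller bounds. Over all 52 mouse miRNAs detected in total BM only, 73.1% had such a bound of 2-fold or more, against 2 of 5 star miRNAs. With each array's background recentred on its undetected probes, both bounds fell below 2-fold, to 1.90 and 1.17.

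The other 3 gave no bound above 1. MiR-483* read 12.7 ± 2.99 in total BM and 4.59 ± 2.73 in LKS, apart by 2.00 combined errors. MiR-877* read 11.1 ± 2.10 and 6.29 ± 1.94, apart by 1.68. MiR-191* read 9.56 ± 2.08 and 4.45 ± 1.93, apart by 1.80. The arrays' undetected mouse probes were themselves offset by 2.53 units, and with that offset removed the 3 differences were 1.38, 0.794 and 0.907 combined errors. For these 3, a call on 1 array and not on the other thus did not come with signals clearly apart.

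**Figure D3:**
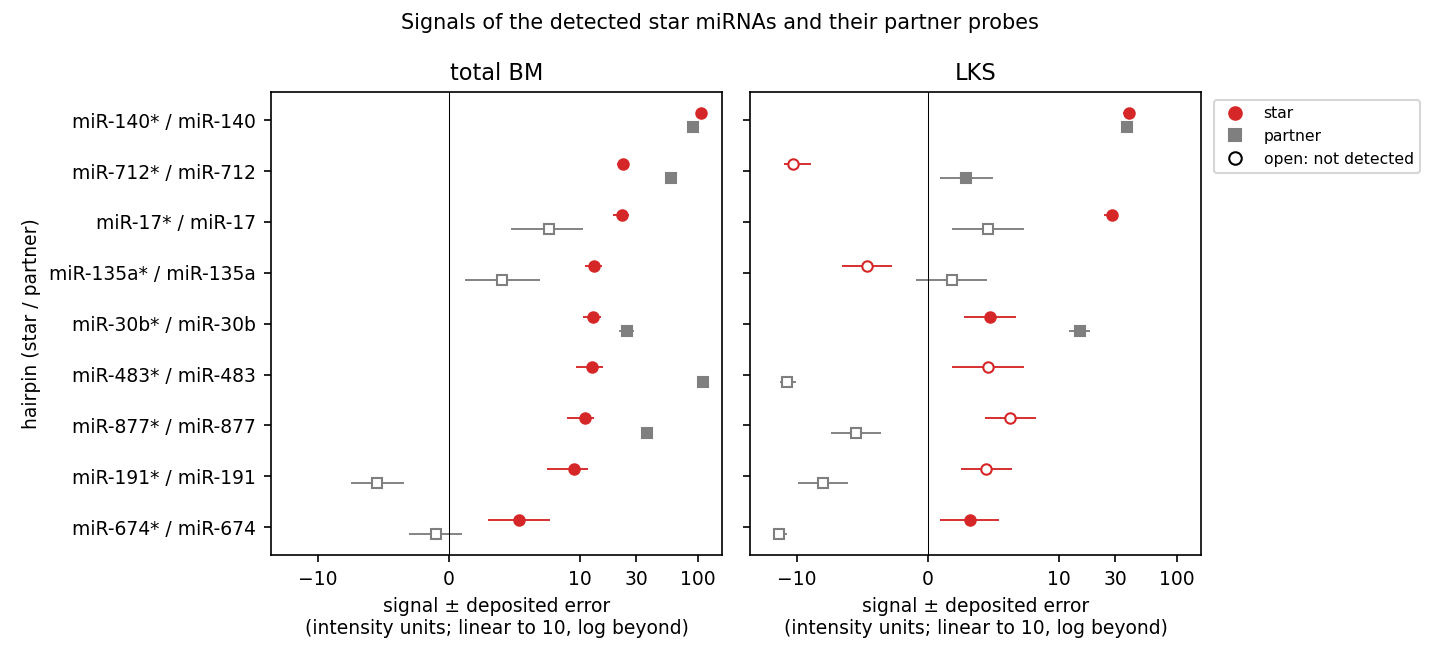
Signal (x axis, intensity units, linear to 10 and logarithmic beyond) with its deposited error for the 9 detected star miRNAs (red circles) and the partner probe of the same hairpin (grey squares), in total BM (left) and LKS (right); open symbols were not detected. Both arms of miR-140 and miR-30b were detected on both arrays, whereas the partners of miR-17*, miR-135a*, miR-191* and miR-674* were detected on neither.

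Each star was next set beside its partner. A non-star probe of the same precursor was on the array for 106 of the 115 star miRNAs, all 9 detected ones among them. Since affinities differ, detection and the change between arrays are compared, and signals of both probes stand side by side. In total BM both arms were detected for 5 hairpins, the star alone for 4, the partner alone for 39 and neither for 58. In LKS these counts were 2, 2, 39 and 63. The star was detected in 11.4% of the 44 hairpins whose partner was detected in total BM and in 6.45% of the 62 whose partner was not. In LKS these shares were 4.88% of 41 and 3.08% of 65, each resting on 2 star miRNAs.

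Hairpins whose arms are both named by 5p or 3p served as the nearest comparison. Of 60 such hairpins, 21 had a detected arm in total BM and 4 of these (19.0%) had both, while 48 hairpins with a star name had a detected arm and 5 of these (10.4%) had both. In LKS it was 1 of 16 (6.25%) and 2 of 43 (4.65%). With so few hairpins these shares are a description, and a difference between the naming groups was not tested.

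Both arms were detected on both arrays for 2 hairpins. MiR-140 read 90.6 ± 7.57 in total BM and 37.7 ± 4.0 in LKS, so its log2 ratio was -0.54 ± 0.19 beside -0.70 ± 0.21 for miR-140*. MiR-30b read 25.0 ± 3.63 and 15.2 ± 3.05, a ratio of -0.00 ± 0.36 beside -0.70 ± 0.66 for miR-30b*. The star minus partner differences, which no common scaling factor changes, were -0.16 ± 0.29 and -0.70 ± 0.75. Each was below 1 technical error, so an arm-specific difference between the samples was not detectable for either hairpin.

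For the other 3 of the 5 hairpins with both arms detected in total BM, the star was undetected in LKS. MiR-712 read 59.3 ± 4.16 in total BM and 2.91 ± 2.02 in LKS, lower in LKS like its star strand. MiR-483 read 110.4 ± 6.25 in total BM and -12.1 ± 1.91, undetected, in LKS. MiR-877 read 37.0 ± 2.77 and -5.48 ± 1.91, again undetected in LKS. The star probes miR-483* and miR-877* read 4.59 and 6.29 in LKS without a call. Both lay within the LKS range of the 6 uncalled probes named NC1 or NC2, 4.55 to 14.8.

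In 4 hairpins the star alone was detected in total BM. MiR-17, whose probe carried no call on either array, read 7.66 ± 2.91 in total BM and 4.57 ± 2.73 in LKS, beside the detected miR-17*. MiR-674 read -1.01 ± 2.03 and -14.0 ± 1.91, miR-191 read -5.47 ± 2.01 and -8.00 ± 1.91, and miR-135a read 4.06 ± 2.87 and 1.81 ± 2.71. In LKS, miR-17* and miR-674* were again detected without their partner.

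The miR-17 result stood against its own cluster. MiR-20a, transcribed from the same cluster, shares the seed of miR-17 and is identical to it at 21 of 23 bases, differing by C1U and C12U (miR-17 base, position from the 5′ end, miR-20a base). The arms of both hairpins are shown for that reason, those of miR-20a here.
miR-20a: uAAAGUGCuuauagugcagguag
miR-20a*: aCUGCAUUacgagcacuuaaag
MiR-20a read 1650 ± 144 in total BM and 1966 ± 171 in LKS, whereas miR-20a* read -2.92 ± 2.01 and -3.06 ± 1.91. Thus the miR-17 hairpin was detected through its star probe and the miR-20a hairpin through its partner probe. Scaled log2 ratios of miR-17* and miR-20a were 1.03 ± 0.29 and 0.98 ± 0.18, within 1 technical error of each other. The ratios of other cluster members were 1.11 ± 0.19 for miR-19b, 1.27 ± 0.19 for miR-92a, 0.49 ± 0.16 for miR-19a and 0.092 ± 0.19 for miR-18a, so the cluster did not share a single ratio.

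**Figure D4:**
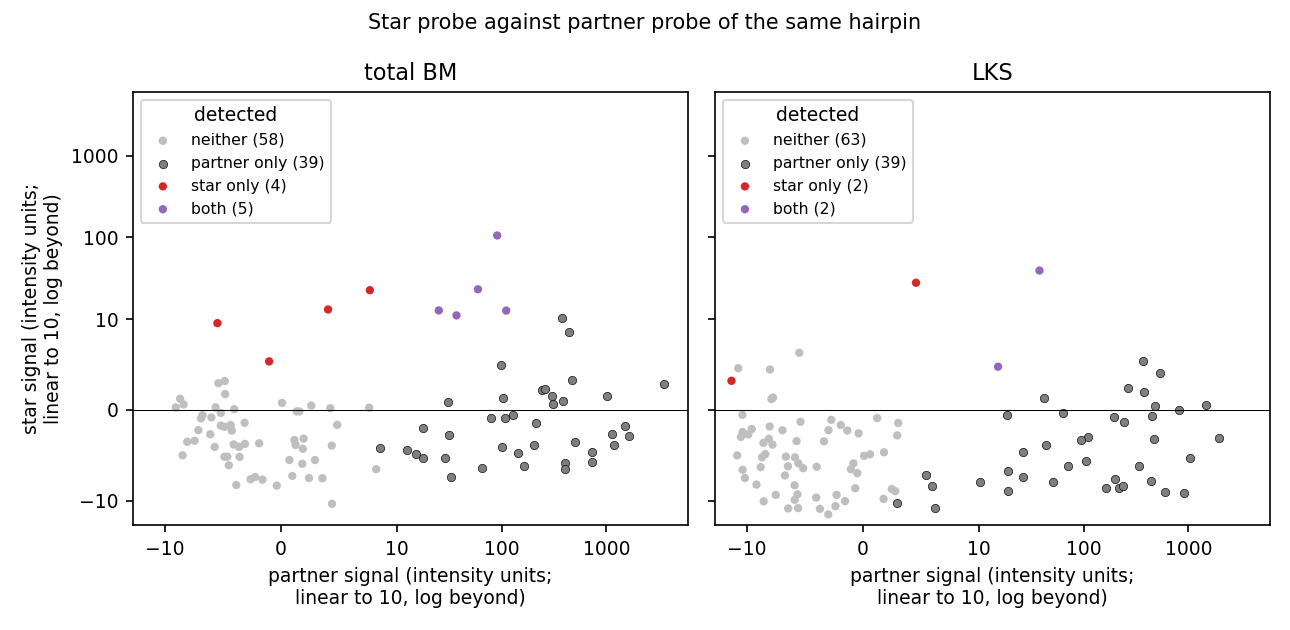
Star signal (y axis) against the partner signal of the same hairpin (x axis), in intensity units on axes linear to 10 and logarithmic beyond, for the 106 hairpins with both probes, in total BM (left) and LKS (right), coloured by which arm was detected. Partners up to 3559 units in total BM and 1966 in LKS had undetected star probes near 0, while the detected star probes had partners at 110.4 units or below.

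Detection of the star was set beside the brightness of the partner. Partner signals exceeded 100 intensity units in 27 hairpins in total BM and 23 in LKS. The star was detected in 1 of the 27, miR-483*, and in 0 of the 23, beside 7.83% and 3.48% of all star probes, and counts this small do not set these hairpins apart. Where the partner alone was detected, its median signal was 212 in total BM and 196 in LKS, while the star medians were -2.60 and -5.25 and the highest undetected star read 10.3 and 5.42, in both cases let-7f*.

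By family, the 7 star strands listed for the miR-17/miR-92a cluster and its paralogs were undetected except miR-17*. Their partners were detected for 6 of 7 hairpins on each array. Over all star probes the detected shares were 7.83% in total BM and 3.48% in LKS, and nothing is read from 1 of 7. MiR-106b read 737 ± 64.1 in total BM and 596 ± 52.4 in LKS, and miR-106b* -5.79 ± 2.01 and -9.06 ± 1.91. MiR-92a*, left out of that list by its name, read -5.48 ± 2.01 and -9.04 ± 1.91 beside a miR-92a signal of 1401 ± 130 and 2052 ± 191.

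The let-7 family, known to restrain growth and to rise with differentiation, had 7 star probes, of which 0 were detected. At the shares of 7.83% in total BM and 3.48% in LKS over all star probes, this count is no result about the family. All 7 partners were detected on both arrays, at 241 to 1145 units in total BM and 339 to 1041 in LKS. Let-7f* read 10.3 ± 2.08 in total BM and 5.42 ± 1.93 in LKS, and let-7b* 8.62 ± 2.06 and 4.07 ± 1.93. In total BM these were 4.95 and 4.18 times their errors without a call, whereas miR-674* carried the call at 2.24 times its error, so the call does not follow signal over error alone. The star range of the family was -3.52 to 10.3 in total BM and -6.13 to 5.42 in LKS, its lowest member on both being let-7g*.

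The star strands listed under mature blood cell hairpins were detected in 0 of 11 cases on either array. This stands beside 7.83% and 3.48% of all star probes, and nothing is read from this count. They had signals from -7.53 to 2.83 in total BM and -12.6 to 0.486 in LKS. Of their 10 partners, total BM detected 9 and LKS 8, so the name of the list does not make them particular to mature cells here. MiR-15b, of a family known to restrain the cell cycle, read 3559 ± 321 and 1481 ± 135, while miR-15b* read 2.83 ± 2.02 and 0.486 ± 1.91. MiR-21, broadly expressed and induced by inflammation, read 1190.4 ± 109 and 906 ± 83.1, with miR-21* at -3.84 ± 2.01 and -9.12 ± 1.91.

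The 8 star strands of stem and progenitor hairpins were detected on neither array, which at the same general shares of 7.83% and 3.48% is no result about this list, and read at most 3.18 in total BM (miR-99b*) and -0.568 in LKS (miR-181a-1*). MiR-125b*, of a hairpin known to expand blood cells when overexpressed, read -3.89 ± 2.01 and -7.29 ± 1.91. Of the 6 partners matched by name, miR-10a and miR-181a were detected on both arrays and the other 4 on neither. MiR-125b-5p, which was not matched to miR-125b*, had a call in LKS only, at 26.7 ± 3.95, beside 0.116 ± 2.86 in total BM. MiR-10a, encoded in a Hox cluster, read 144 ± 12.4 and 219 ± 18.5, and miR-10a* -4.75 ± 2.01 and -8.55 ± 1.91.

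In the miR-29, miR-30, miR-26, miR-101 and miR-148 families, 1 of 11 star strands was detected, miR-30b*, on both arrays. Their 10 partners were detected in 9 cases in total BM and in 10 in LKS. The star count of 1 of 11 stands beside 7.83% and 3.48% of all star probes, and nothing is read from it. The star strands of miR-30a, miR-30c and miR-30e carried no call, with miR-30e* at -0.839 ± 2.86 in total BM and -3.87 ± 2.70 in LKS beside miR-30e at 78.4 ± 7.42 and 43.2 ± 4.75. MiR-29c* was the third nearest to detection in total BM by signal over error, at 4.92 ± 2.87, after let-7f* and let-7b*. In LKS the 3 nearest were miR-877*, let-7f* and miR-191*.

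The 13 star strands of the imprinted Dlk1-Meg3 region were undetected, which at 7.83% and 3.48% of all star probes is no result about the region. All 13 partners were undetected too, and read at most 4.25 in total BM and 3.04 in LKS. The highest star signal among them was that of miR-382*, at 1.75 ± 2.85 and 1.35 ± 2.71. On no list were 58 of the 115 star miRNAs, and these held 7 of the 9 detected in total BM and 2 of the 4 in LKS.

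The 106 star miRNAs detected on neither array still differed from each other in signal in a similar order on both arrays. Across these probes Spearman rho was 0.87 and Pearson r was 0.87. The 310 undetected probes without a star also gave a Spearman rho of 0.87, so this is not particular to star probes. The points share the probe and the array design, and no p is given. LKS signals were lower for 104 of the 106, by a median of 2.13 units. The same held for 297 of the 310 undetected probes without a star, by a median of 2.47. Undetected star probes lay more than 3 deposited errors below 0 for 16 of 106 (15.1%) in total BM and for 48 of 111 (43.2%) in LKS. Undetected probes without a star did so in similar shares, 48 of 315 (15.2%) and 144 of 357 (40.3%). The deposited errors thus do not cover the background of a probe, with or without a star.

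The 6 probes named NC1 or NC2, which the files do not define and which carried no call, read 4.93 to 17.0 in total BM and 4.55 to 14.8 in LKS. Of the 9 star miRNAs detected in total BM, 3 exceeded that range (miR-140*, miR-712* and miR-17*), and of the 4 detected in LKS, 2 did (miR-140* and miR-17*). Calls on the other star miRNAs rest on signals that such probes also reached. The negative control and viral probes reached higher still, up to 78.9 in total BM and 67.8 in LKS, and only miR-140* in total BM exceeded that level, with 0 star miRNAs above it in LKS. The lack of a call does not show that a star strand was absent.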

How the data were processed

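MiRNA levels were measured on single-colour (Cy3) Agilent arrays in 2 samples, total bone marrow and LKS cells, with 1 array each. Per the file headers, the authors deposited linear signal intensity values with errors and detection calls, and no source used here gives the rule behind the calls. The authors' deposited log2-like value table (column medians 1.46 and 1.00) follows these signals through a linear step, an arcsinh transform and an offset, so its scale and direction are known while the reason for its centring is not. It served as an alternative. Star miRNAs were the mouse probe names ending in a star. Each was paired with the probe of the same precursor accession and no star. Signals were divided by their own array's 75th percentile of the 93 shared mouse miRNAs, those with a call on each array (399 and 242), which raised each LKS to total bone marrow ratio by 0.72 on the log2 scale. Ratios were called at 2-fold. All star miRNAs with a detection call are named, with list members and those nearest detection. The rule for members reads names only, but the members and lists were chosen with earlier results of these data known. The depth of an array is its signal over background, and its precision is the deposited error, which covers technical error on that array only. No test was run, because each group has 1 array. Alternatives were other scalings, thresholds, filters, detection rules, floors and partner matching. Python 3.11.15 with pandas 2.3.3 and numpy 2.4.6 was used.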

Additional observations from a re-analysis of the deposited data

How the results depend on the processing

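No paired analysis was possible because there is a single array per group; for the same reason leave-one-out values do not exist. Star miRNAs detected were 9 in total BM, 4 in LKS and 4 on both. These counts became 11, 7 and 7 when a signal above 2 errors replaced the call, and 10, 3 and 3 when one above 3 errors did. They were 1, 0 and 0 when the call was kept and the signal had to exceed the ceiling of negative control and viral probes (78.9 and 67.8 units). Above that ceiling 0 hairpins on either array had the star alone. The counts of 1 higher and 0 lower at 2-fold became 0 and 2 without scaling, 4 higher with the 75th percentile of all mouse miRNAs, 2 higher with quantile normalization, and 0 and 1 in the deposited values. All 93 shared mouse miRNAs, 17 higher and 17 lower in the main setting, moved alike, to 7 and 36, 77 and 7, 29 and 14, and 7 and 28, so these counts say little of star strands. A 1.5-fold threshold gave 2 lower and a 4-fold one 0 higher. Including star miRNAs with a call on a single array gave 2 lower, and all with signals above 0 gave 4 lower. The median ratio of -0.36 became -1.08 without scaling, 1.76 with the percentile of all miRNAs, 1.20 with quantile normalization and 0.43 with recentred background, beside 0.07 in the main setting and -0.65, 2.19, 0.57 and 0.26 over all 93. Ratios that turned sign were 1.42 for miR-140*, 1.42 for miR-30b* and 2.10 for miR-674* with the percentile of all miRNAs, which adds the same constant to every ratio and says nothing of single strands; 0.043, 0.60 and 1.85 with quantile normalization; 0.087 for miR-30b* and 0.77 for miR-674* with recentred background; and 0.23 and 0.064 for miR-674* with median scaling and the deposited values. MiR-17* kept its direction in all 6. Recentring, added after the data were seen for the bounds, left 0 bounds of at least 2-fold. The cause of the other changes was not tested. The star minus partner median over 2 hairpins was -0.43. Partner matching by name left the same 2 hairpins and the same value, but it could not have changed them. By name, all 106 paired star miRNAs had the same partner, and the 9 others carried no call. The median was -0.16 with the deposited values, -0.17 with recentred background and -0.03 with quantile normalization. Hairpins with signals above 0 on both arrays, 11 in number, gave -0.80. Each of these moved by less than the technical error.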
